A study of Mus musculus with 8 samples.

Results

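The Atg genes examined here are 10 mouse genes of the core autophagy machinery: Atg13, Atg101, Atg14, Atg9a, Atg5, Atg12, Atg16l1, Atg7, Atg3 and Atg4b. They were taken by name from the 21887 protein-coding RefSeq genes on the 21 main chromosomes, and each was described by the peaks that overlapped its gene body or 1 kb on either side, called its window here. The set was chosen by name but selected on earlier results of these data, namely the Polr1c folds at Atg13 and the Mgea5 folds at Atg14, so all values are descriptions and none was tested. The peaks come from ChIP-seq, in which a protein is immunoprecipitated together with the DNA it is crosslinked to, and that DNA is sequenced. It was done on primary neural progenitor cells cultured from the hippocampus of male C57BL/6 mice, with no treatment or genotype contrast in the labels. The proteins, with 2 replicates of each, were Mgea5 (an O-GlcNAc hydrolase, now named Oga), the pannexin Panx2, and Polr1c, which belongs to both RNA polymerase I and RNA polymerase III. The 2 input libraries, of chromatin without precipitation, were not analysed here. Nothing in the labels says that the replicates came from separate cultures or animals, and peak lists hold no expression values by which the labelled cell type could be checked.

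Autophagy encloses cytoplasm in a double membrane that fuses with the lysosome. A kinase complex of ULK1, ATG13, ATG101 and RB1CC1 starts it, a phosphoinositide kinase complex directed by ATG14 marks the site, vesicles carrying ATG9A bring lipid, and 2 ubiquitin-like conjugation reactions attach ATG12 to ATG5 and LC3 to the growing membrane. The process keeps proteins and mitochondria in order in neural stem and progenitor cells, and the transcription factor TFEB, which binds an E-box, is known to drive many of its genes.

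The start windows of 4 members are shown because peaks of both replicates of a protein covered the start of Atg13, Atg14 and Atg5, and because the start of Atg4b had the highest Panx2 fold of replicate 2 over any of the 8 starts (2.89). Each runs from 250 bases before to 50 bases after the annotated start, 5′ to 3′ on the strand of the gene, in RefSeq's GRCm38.p6 (the coordinates of mm10). They lie at chr2:91710543-91710842 on the minus strand for Atg13, chr14:47568385-47568684 on the minus strand for Atg14, chr10:44268089-44268388 on the plus strand for Atg5 and chr1:93754655-93754954 on the plus strand for Atg4b. Capitals mark the letters of any of 9 short motifs searched on both strands, which are listed further on.
Atg13: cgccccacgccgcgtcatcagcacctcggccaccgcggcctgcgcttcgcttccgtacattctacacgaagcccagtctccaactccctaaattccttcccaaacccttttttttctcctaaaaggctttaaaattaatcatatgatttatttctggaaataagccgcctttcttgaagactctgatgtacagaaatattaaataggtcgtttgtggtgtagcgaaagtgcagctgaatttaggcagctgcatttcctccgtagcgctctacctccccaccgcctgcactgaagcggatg
Atg14: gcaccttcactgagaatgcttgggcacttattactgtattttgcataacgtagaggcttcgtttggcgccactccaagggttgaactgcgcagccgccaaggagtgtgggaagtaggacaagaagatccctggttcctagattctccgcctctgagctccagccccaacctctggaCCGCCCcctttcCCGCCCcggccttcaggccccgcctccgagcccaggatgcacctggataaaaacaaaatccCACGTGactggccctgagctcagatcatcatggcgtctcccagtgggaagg
Atg5: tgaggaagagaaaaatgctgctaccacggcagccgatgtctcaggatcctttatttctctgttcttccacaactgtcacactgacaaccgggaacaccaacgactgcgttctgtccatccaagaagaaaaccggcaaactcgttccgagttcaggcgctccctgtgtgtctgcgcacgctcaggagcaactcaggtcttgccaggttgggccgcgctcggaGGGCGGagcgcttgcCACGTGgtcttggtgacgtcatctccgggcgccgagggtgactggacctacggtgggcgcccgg
Atg4b: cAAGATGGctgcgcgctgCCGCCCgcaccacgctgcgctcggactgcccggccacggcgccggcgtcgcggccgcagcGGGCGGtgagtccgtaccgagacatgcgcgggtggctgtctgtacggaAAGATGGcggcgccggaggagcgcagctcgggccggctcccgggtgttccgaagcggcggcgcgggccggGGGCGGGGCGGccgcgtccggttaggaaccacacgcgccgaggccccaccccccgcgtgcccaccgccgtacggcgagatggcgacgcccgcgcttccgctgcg
Of the 10 members, 8 matched such a start window, and Atg12 and Atg16l1 are described by their windows and gene ends.

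The 6 lists differ in kind. The Polr1c lists are narrow peaks, 826 in replicate 1 and 35927 in replicate 2, and the Mgea5 and Panx2 lists are broad peaks, 145405 to 536877 of them. Each peak carries the authors' fold, the ratio of its ChIP signal to background, and a q-value. Most peaks were weak: a deposited −log10 q of 0, which is a q of 1, was given to 97.4% and 97.7% of Mgea5 peaks (replicates 1 and 2), 99.9% and 63.8% of Panx2 peaks, and 63.3% and 28.6% of Polr1c peaks. Folds are therefore compared only within a list, except where other autophagy genes are picked for naming. Peak names show 2 calling directories, with Panx2 and Polr1c replicate 1 in one and the other 4 lists in the other, so for these proteins replicate and calling directory cannot be told apart.

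Atg13 was the one member with a Polr1c peak in both replicates. The peak was narrow and lay over the start of the gene. In replicate 1 it spanned chr2:91710410-91710887 at a fold of 14.7 (q = 1.21e-30), and in replicate 2 chr2:91710223-91710930 at a fold of 11.8 (q = 3.87e-57). The replicate 1 peak lay wholly inside that of replicate 2, so 478 bp were in both, 67.5% of the bp in either. The summits stood at -171 bp and -160 bp from the Atg13 start. Harbi1, a gene derived from a transposase, starts 260 bp away on the other strand, so both summits fell between the starts and the peaks covered both; the peaks cannot assign the signal to either gene. By p, the peak ranked 65 of 826 in replicate 1 and 28 of 35927 in replicate 2. Of the 60 protein-coding genes with a Polr1c peak of both replicates in the start window, Atg13 had the fourth highest geometric mean fold (13.2; rank 4). These values are among those that led to the choice of the gene.

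Polr1c serves RNA polymerases that transcribe ribosomal RNA, tRNA and other short RNAs. The only other annotated RefSeq gene that overlapped the window of Atg13 was Harbi1, which is protein-coding. The nearest tRNA gene of the RefSeq table was 22400 kb away. The B box core GGTTCGA, an internal promoter element of tRNA genes, was not in the start windows of the 8 members, and 0.966% of 17492 protein-coding start windows held it. Both Polr1c peaks at Atg13 reached beyond its start window, and genes missing from the annotation were not searched for. Why Polr1c was enriched there was not tested. The Atg13 window printed above had none of the 9 motifs and the second lowest GC content of the 8 members at 49.0%, against a median of 56.3% over all start windows.

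The same place at Atg13 held weak Mgea5 peaks. In replicate 1 a peak from -398 to 398 bp around the start reached a fold of 1.86 (q = 0.899), and in replicate 2 one from -127 to 38 bp reached 1.59 (q = 1). Both Mgea5 replicates listed the site, at ranks of 16793 and 132871 by p, far down their lists. A Panx2 peak of replicate 2 (fold 1.89, q of 0.989) began 291 bp inside the gene, and Panx2 replicate 1 had no peak within 1 kb of the start.

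The other 9 members had no Polr1c peak in replicate 1. In replicate 2, Atg3 had a peak at a fold of 3.36 (q = 0.184). Atg7 had 3, at folds of 2.45, 2.86 and 3.15 (lowest q = 0.299), and Atg16l1 had 1, at a fold of 2.45 (q = 1). Atg101, Atg14, Atg9a, Atg5, Atg12 and Atg4b had none in either list. So 1 of 10 members had a Polr1c peak in both replicates, where 1.28% of all protein-coding genes did. The same 1 had overlapping peaks (0.685% of all genes) and a q of at most 0.01 in both (0.425%). Replicate 1 alone had peaks at 1 of 10 members and at 1.48% of all protein-coding genes, and replicate 2 alone at 4 of 10 and at 42.6%. Among the members, Polr1c peaks in both replicates, and Polr1c peaks of q at most 0.01 in either, were at Atg13 alone. Over all protein-coding genes, 0.475% had a Polr1c peak of such a q in replicate 1 and 3.71% in replicate 2.

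**Figure D1:**
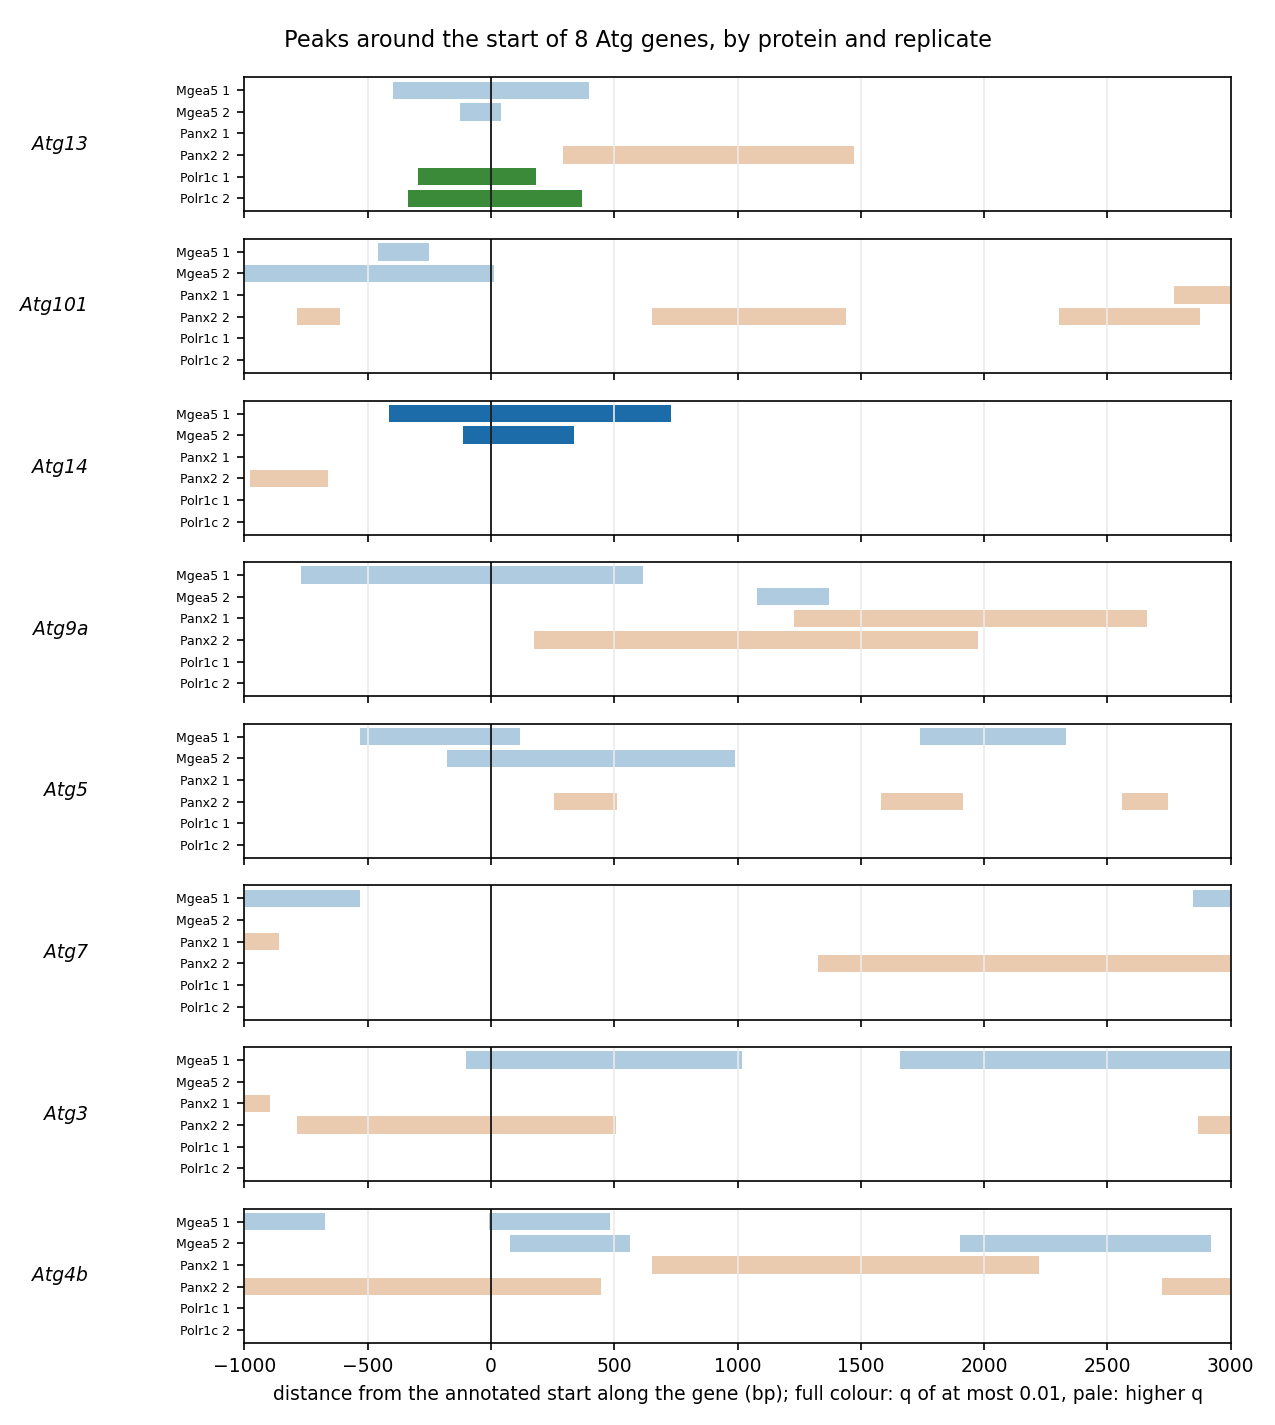
Peaks of the 6 lists from 1000 bp before to 3000 bp after the annotated start of 8 Atg genes, along each gene (x axis, bp). Bars are peaks, in blue for Mgea5, orange for Panx2 and green for Polr1c with a line for each replicate, in full colour where q is at most 0.01; those are the 2 Polr1c peaks at Atg13 and the 2 Mgea5 peaks at Atg14.

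Atg101 encodes the partner that stabilises ATG13 in the kinase complex. It is the shortest member at 6647 bp, and its peaks were few. The strongest lay just upstream of its start. For Mgea5, replicate 1 had a peak from -459 to -254 bp (fold 1.99, q of 0.676) inside the replicate 2 peak from -1443 to 12 bp (fold 1.89, q of 0.23). These ranked 1000 of 536877 and 1317 of 521566 by p, and neither q was below 0.05. The highest Panx2 folds at Atg101 were 1.82 and 1.70, both with a q of 1, and no Polr1c peak was listed.

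Atg14 was the one member with a Mgea5 peak of q at most 0.01 in both replicates. Its product brings the phosphoinositide kinase complex to the sites where autophagosomes form. The peak covered the start. It spanned chr14:47567704-47568849 in replicate 1, from -415 to 730 bp around the start, at a fold of 3.50 (q = 0.00151). In replicate 2 it spanned chr14:47568099-47568546, from -112 to 335 bp, at a fold of 3.62 (q = 0.000537). The replicate 2 peak lay wholly inside that of replicate 1, and they ranked 86 by p in replicate 1 and 59 in replicate 2. Among the 2616 protein-coding genes with a Mgea5 peak of both replicates in the start window, Atg14 had rank 7 by geometric mean fold (3.56). These values, too, are among those that led to the choice of the gene.

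Away from its start, Atg14 held little. The remaining Mgea5 peaks were 2 in replicate 1 and 1 in replicate 2, with folds of 1.62 to 1.79, and peaks covered 6.41% and 2.49% of its window. Panx2 had no peak in replicate 1 and 3 in replicate 2, with folds of 1.58 to 1.99 and none over the start, and Polr1c had none in either list. Atg14 lies on chromosome 14 beyond 45 Mb, where peaks were sparse in every broad list: the median coverage of the 496 protein-coding genes there was 2.47% and 0.422% for Mgea5, against 20.4% and 13.5% for the 19814 genes on autosomes outside chromosome 14. What part the sparse region has in the low coverage of Atg14 was not tested.

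**Figure D2:**
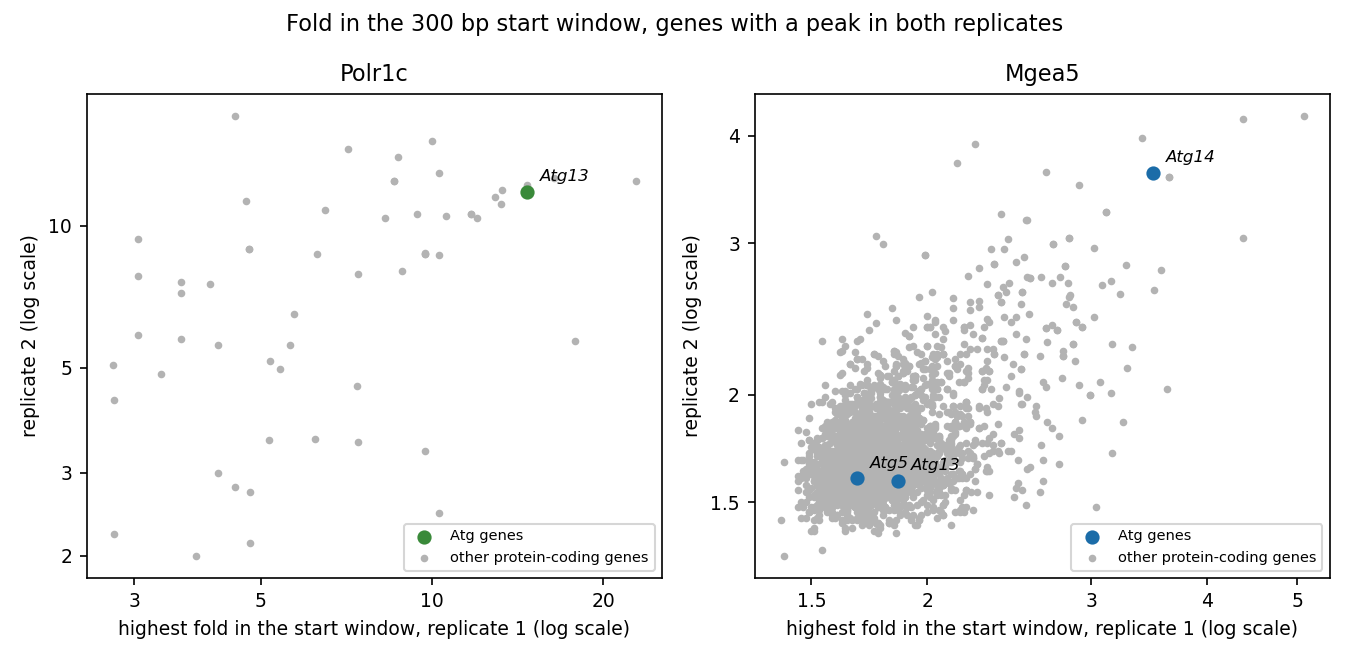
Highest fold in the 300 bp start window in replicate 1 (x axis) and replicate 2 (y axis), both on log scales, for protein-coding genes with a peak there in both replicates: Atg genes in colour and other genes in grey. Atg13 (14.7 and 11.8) is the one Atg gene in the Polr1c panel, and in the Mgea5 panel Atg14 (3.50 and 3.62) stands apart from Atg5 and Atg13, which lie among most genes.

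Atg9a encodes a transmembrane lipid scramblase. Its highest Mgea5 folds were 1.74 and 1.70, at different positions. Atg9a was the only member where no Mgea5 peaks of the replicates overlapped each other inside the window. With 5 kb on either side, 10 of 10 members had such an overlap. The share of all genes was not computed at that setting. Replicate 1 had a peak over the start, from -772 to 615 bp (fold 1.63, q of 1), a region shared with Ankzf1, whose start lies 150 bp away on the other strand. The Panx2 peaks did overlap, 1229 to 1975 bp inside the gene, with folds of 1.77 in replicate 1 and 2.15 in replicate 2 and q-values of 1 and 0.697. Panx2 replicate 2 covered 36.5% of the Atg9a window, the highest share among the members, in 4 peaks of 283 to 1802 bp.

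The 4 genes of the ATG12 conjugation reaction had no peak of q at most 0.01 in any list, and few genes did. Over all protein-coding genes, 0.429% and 0.498% had one for Mgea5 (replicates 1 and 2) and 0.00457% and 0.905% for Panx2. For Polr1c the shares were 0.475% and 3.71%. Atg7, whose enzyme activates both ATG12 and LC3, is the longest member at 217478 bp and held the most peaks: Mgea5 had 64 in replicate 1 and 62 in replicate 2, Panx2 had 9 in replicate 1 and 66 in replicate 2, and Polr1c had 3 in replicate 2 alone. Its Mgea5 peaks reached folds of 2.24 and 2.08, and the Panx2 peaks 2.07 and 3.53. The last was the highest Panx2 fold at any member, at chr6:114737861-114738744 with a q of 0.0279, and began 66765 bp after the annotated start. Panx2 replicate 1 had no peak there, and the Mgea5 peaks that overlapped it had folds of 1.56 and 1.55. This Panx2 peak of replicate 2 also overlapped an end of the annotated pseudogene Gm19040 (chr6:114738533-114741775). No list had a peak in the Atg7 start window, which had the lowest GC content of the 8 at 42.7%. That start (chr6:114671096) lies inside the annotated gene, whose low-coordinate end is at chr6:114643127.

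Atg5, the acceptor of ATG12, had Mgea5 peaks of both replicates over its start, from -533 to 117 bp at a fold of 1.68 and from -179 to 987 bp at 1.60, each with q = 1. Both peaks also overlapped the long noncoding RNA gene Gm40637 (chr10:44267742-44268202), which lies just before that start. The highest folds of Atg5 lay elsewhere in the gene, at 2.34 and 2.06 for Mgea5 and 2.07 and 2.04 for Panx2. Atg12, the ubiquitin-like protein itself, had highest folds of 2.17 and 1.80 for Mgea5 and 2.0 and 2.38 for Panx2. The Mgea5 replicate 1 peak and the Panx2 replicate 2 peak with these folds overlapped at the end that Atg12 shares with Ap3s1, a gene of an endosomal coat. The replicates of neither protein overlapped there.

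Atg16l1 ties the ATG12 and ATG5 conjugate to the membrane. Its highest folds were 2.36 and 1.79 for Mgea5 and 1.82 and 2.06 for Panx2, all with q-values of 0.785 or more. The weak Polr1c peak of replicate 2 (chr1:87776977-87777198, 222 bp) lay inside the small RNA gene Gm25395, annotated as a guide RNA at chr1:87776938-87777209 within Atg16l1. The second guide RNA gene inside Atg16l1, Scarna6, had no Polr1c peak, and replicate 1 had none at either.

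Of the genes that process LC3, Atg4b had the highest Mgea5 fold of replicate 1 after that of Atg14. Its protease trims LC3 before conjugation and releases it afterwards. At the start, Mgea5 replicate 1 had a fold of 2.93 (chr1:93754896-93755385, q of 0.114, rank 204 by p) and Panx2 replicate 2 a fold of 2.89 (chr1:93753737-93755349, q of 0.0415, rank 1531 by p). Mgea5 replicate 2 had a weaker peak from 77 to 564 bp, at a fold of 1.87 (q = 1), and Panx2 replicate 1 had none over the start. The start of Thap4, a THAP domain gene, lies 67 bp away on the other strand. At the far end of Atg4b, peaks of both Mgea5 and both Panx2 lists overlapped one another, with folds of 1.71 and 2.11 (Mgea5) and 1.76 and 1.80 (Panx2), each with q = 1.

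Atg3, the enzyme that attaches LC3 to lipid, had 1 place inside the gene where peaks of 3 proteins overlapped. Polr1c replicate 2 (chr16:45168318-45168582, fold 3.36, q of 0.184), Mgea5 replicate 1 (fold 2.37, q of 0.976), Mgea5 replicate 2 (fold 1.63, q of 1) and Panx2 replicate 2 (fold 3.0, q of 0.141) overlapped there, the Polr1c peak from 9489 to 9753 bp after the start. All 4 lists are from the same calling directory, and replicate 1 of Polr1c and of Panx2 had no peak there. Besides the start of Atg13, it was the only place in the member windows where peaks of all 3 proteins overlapped. Polr1c replicate 2 had peaks in the windows of 42.6% of all protein-coding genes. The share of all genes with such a 3-protein overlap was not computed, so it cannot be called a trait of the members. At the Atg3 start, Mgea5 replicate 1 (fold 1.90) and Panx2 replicate 2 (fold 2.08) had peaks, and the other replicates had none.

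**Figure D3:**
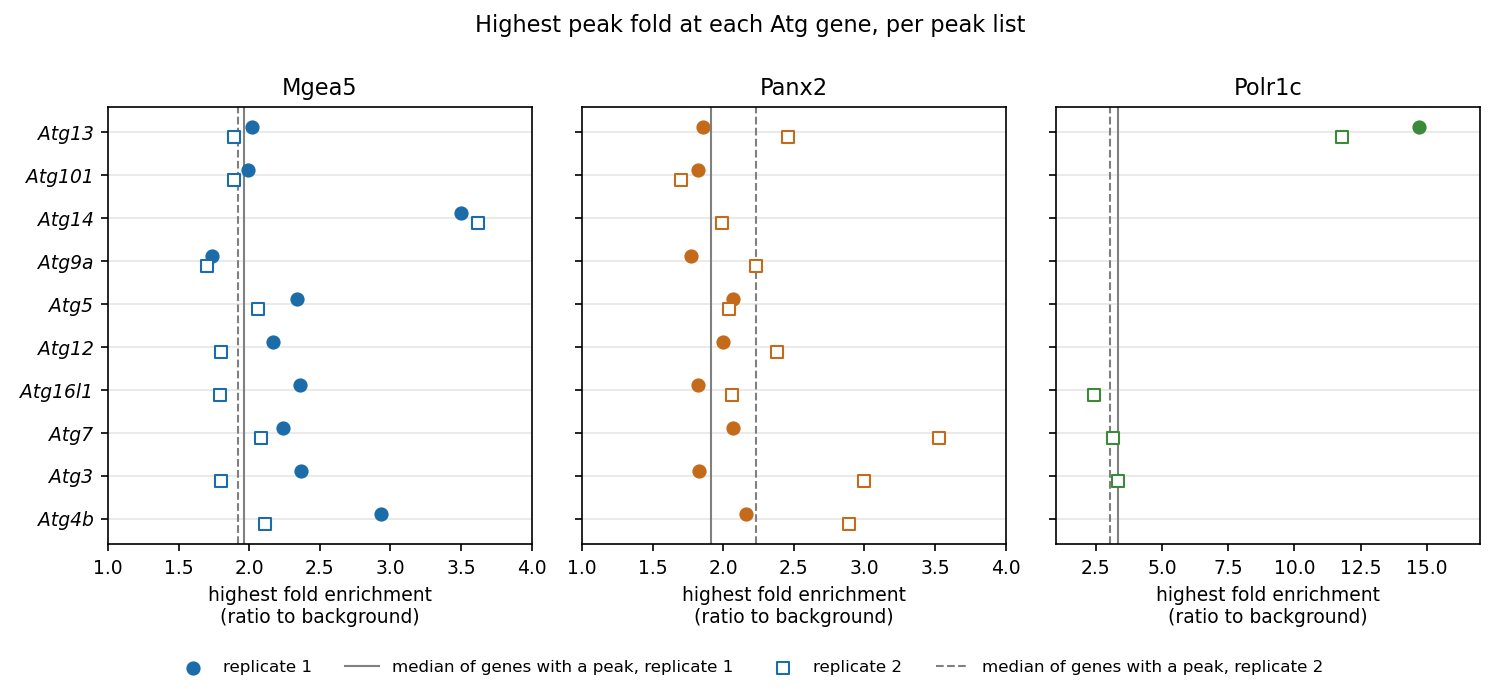
Highest fold enrichment of any peak in the window of each Atg gene (rows), for Mgea5, Panx2 and Polr1c (panels, with different x axes); filled circles are replicate 1, open squares replicate 2, and grey lines the medians of all protein-coding genes with a peak. Atg14 stands out for Mgea5 and Atg13 for Polr1c in both replicates, whereas the higher Panx2 folds at Atg7 (3.53), Atg3 (3.0) and Atg4b (2.89) are in replicate 2; no mark means no peak.

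Broad peaks were in the windows of nearly all members, and of most protein-coding genes. A Mgea5 peak of both replicates was in the window of 10 of 10 members, and of 82% of all protein-coding genes. The members were longer, with a median of 32206 bp against 17169 bp, and the part of length in these counts was not tested. Mgea5 peaks of the replicates overlapped each other at 9 of 10 members, against 70.6% of all genes. In single replicates, Mgea5 peaks were at 10 and 10 members (88.8% and 85% of all genes) and Panx2 peaks at 9 and 10 (59.5% and 88.6%). Panx2 peaks of both replicates were in the windows of 9 members, against 57.1%, and overlapped each other at 7, against 38.3%. At a q of at most 0.01 in both replicates the count was 1 for Mgea5 (0.279% of all genes) and 0 for Panx2 (0.00457%).

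The share of the window covered by peaks is a second measure, and it is given beside that of all genes. The median coverage was 21.4% and 14% at the members for Mgea5, against 19.2% and 12.5% over all protein-coding genes. For Panx2 it was 4.47% and 19.9%, against 2.24% and 18.7%. Single members ranged widely and not in the same order in the replicates: Atg13 was covered to 33.7% and 13.6% by Mgea5, Atg9a to 20.2% and 2.33%, and Atg101 to 9.58% and 21.3%. Bp in both Mgea5 lists made up 0% of the bp in either at Atg9a and 2.57% at Atg12. At Atg3, Atg5, Atg7, Atg16l1 and Atg101 they made up 7.96% to 11.8%. The values were 17.2% at Atg4b, 17.6% at Atg13 and 20.5% at Atg14. This overlap was not computed over all protein-coding genes. How much of it unrelated placement of the peaks would give was not tested.

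**Figure D4:**
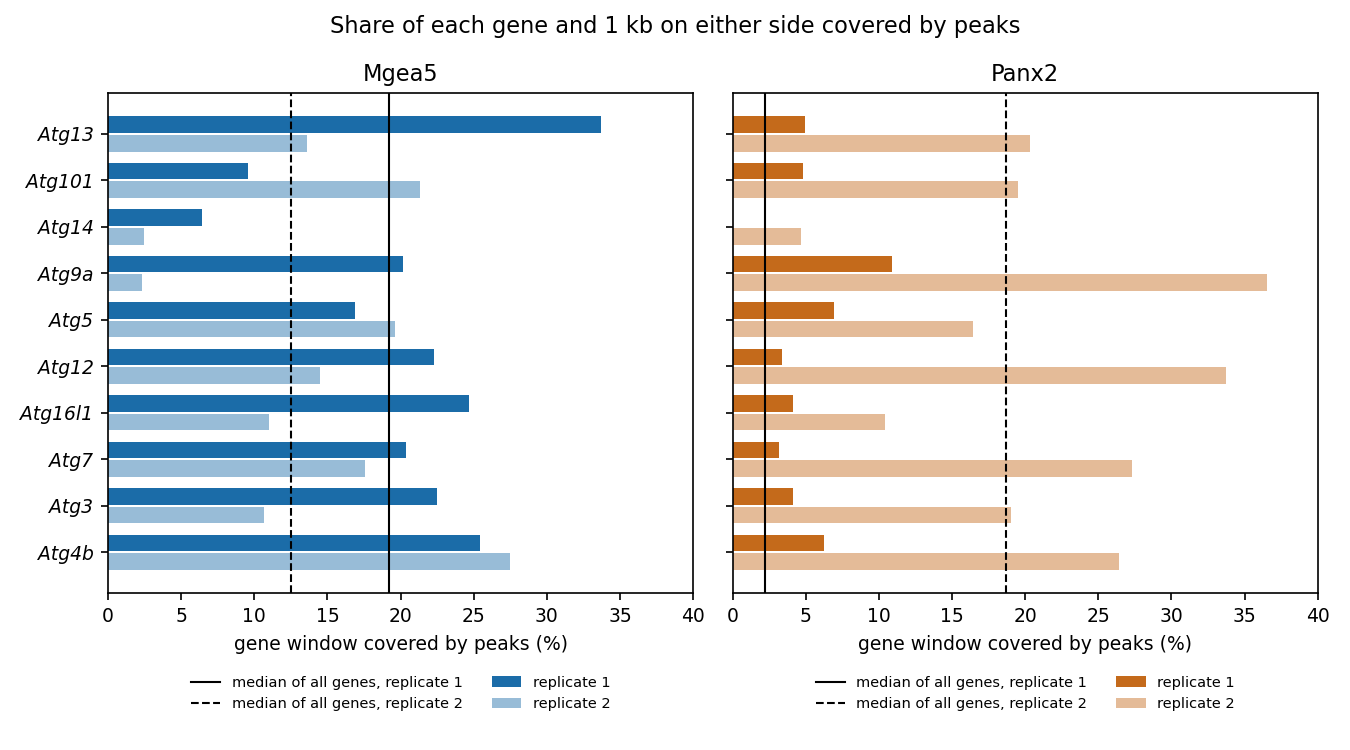
Share of the window of each Atg gene (rows; gene body and 1 kb on either side) covered by Mgea5 (left) and Panx2 peaks (right), in percent, with dark bars for replicate 1, pale bars for replicate 2 and lines at the medians of all protein-coding genes. Atg14 has the lowest Mgea5 coverage in replicate 1 (6.41%), and Panx2 coverage is lower in replicate 1 than in replicate 2 at each of the 10 genes.

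At the starts, where strand is known, 3 of 8 members (Atg5, Atg13 and Atg14) had Mgea5 peaks of both replicates in the 300 bp window, against 15% of protein-coding genes with such a window, and at all 3 the peaks overlapped (13.7%). Replicate 1 alone reached 6 of 8 members (43.6% of all genes) and replicate 2 alone 4 of 8 (22.4%). Panx2 covered 0 of 8 starts in replicate 1 (4.38%) and 2 of 8 in replicate 2 (49.8%), those of Atg3 and Atg4b. Polr1c covered 1 of 8 in both replicates (0.343%).

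Other features of the starts were not used to choose the genes. Whether they go with the folds that were used was not tested. Atg13, Atg9a, Atg3 and Atg4b, 4 of the 8 members, had a protein-coding gene starting on the other strand from 1000 bp before to 100 bp after their start, against 7.75% of 17492 genes; Slc35a5 lies 156 bp from Atg3. The E-box CACGTG was in the windows of Atg14, Atg5, Atg7 and Atg3 (4 of 8), against 7.9% of all start windows. In Atg14 its first base stands at -1 from the start, in Atg5 at -14, in Atg7 at -132, and in Atg3 there are 2, at -94 and -71. The E-box holds a CpG, a C followed by a G. Member windows held from 4 (Atg7) to 55 (Atg4b) of these, against a median of 13 over all start windows. The part of CpG content in the E-box share was not tested.

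The other motifs searched were common or rare without singling out the strong sites. The GC box GGGCGG was in 4 of 8 windows (Atg14, Atg5, Atg3 and Atg4b; 46.3% of all), the CCAAT box CCAAT in 2 (Atg9a and Atg7; 39%), the ETS motif CCGGAAG in 2 (Atg101 and Atg3; 11.9%) and the YY1 motif AAGATGG in 1 (Atg4b; 6.37%). The TATA box TATAAA (13.3%), the FOXO motif GTAAACA (2.94%) and the NRF1 core GCATGCG (4.49%) were in none. Some matches overlap, as do a pair of GC boxes in Atg4b. A match is only that string of letters, and no binding was measured.

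Among 45 other autophagy genes, none had a peak of q at most 0.01 in both replicates of any protein. The shares of all protein-coding genes were 0.279% for Mgea5, 0.00457% for Panx2 and 0.425% for Polr1c. None of the 45 had a Polr1c peak in both replicates (1.28% of all genes), and 23 had one in replicate 2 (42.6%). Of these, 1 reached a q of at most 0.01 in replicate 2 (3.71% of all genes): Tfeb, which regulates lysosomal and autophagy genes, at a fold of 4.29 and with no peak in replicate 1. Mgea5 peaks of both replicates were in the windows of 42 (82% of all genes), and Panx2 peaks of both in those of 30 (57.1%). The 3 genes without a Mgea5 peak in replicate 2 were Bnip3l, on the sparse part of chromosome 14, and Tfe3 and Fundc1, on the X chromosome.

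For each role of this wider list, at most 2 genes are named, ranked by the geometric mean of the folds in both replicates of any protein, which leaves out Polr1c because no gene of the list had its peaks in both. For most of the named genes that protein was Panx2, whose folds are given for replicates 1 and 2. This ranking set Mgea5 and Panx2 folds side by side, although the lists differ. The median fold of all peaks was 1.71 and 1.71 in the Mgea5 lists and 1.8 and 1.84 in the Panx2 lists. Whether Panx2 exceeds Mgea5 at these genes beyond that difference was not tested. Over all protein-coding genes with a peak, median highest folds were 1.91 and 2.23 for Panx2 and 1.96 and 1.92 for Mgea5. The highest fold is taken over all peaks of a window, and the part of gene length in it was not tested. None of the 45 genes had a Mgea5 or Panx2 peak of q at most 0.01 in either replicate. Over all protein-coding genes, 0.429% and 0.498% had one for Mgea5 (replicates 1 and 2) and 0.00457% and 0.905% for Panx2. Pik3c3, the lipid kinase that ATG14 directs, had Panx2 folds of 2.27 and 3.06, and Ambra1, a regulator of the same complex, 2.36 and 2.89. Of the partners of ATG13, Ulk2 had 2.15 and 2.65 and Rb1cc1 1.87 and 2.66. Among receptors that carry cargo to the membrane, Tax1bp1 had 1.97 and 3.32 and Sqstm1 2.01 and 2.79. For membrane expansion, Wipi2, a reader of phosphoinositides, had Panx2 folds of 1.88 and 2.97 and the scramblase gene Vmp1 1.97 and 2.55. Atg10, the enzyme that hands ATG12 to ATG5, had 2.40 and 2.54, and Atg4c, a relative of Atg4b, 1.93 and 2.63. Of transcription factors, Foxo3 had 2.07 and 2.62 and Tfeb 2.07 and 2.59, and of genes of fusion with the lysosome, Epg5 had 2.14 and 2.36 and Snap29 1.98 and 2.41. For the ATG8 family, Map1lc3b had Mgea5 folds of 2.12 and 2.08 and Gabarapl2 Panx2 folds of 1.81 and 2.13. Set beside these, the Mgea5 folds at Atg14 (3.50 and 3.62) and the Polr1c folds at Atg13 (14.7 and 11.8) were the highest of their protein in both replicates among all 55 autophagy genes described. The set was selected on these same folds, so this ranking adds no independent result.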

How the data were processed

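Peak lists of 6 ChIP-seq libraries, 2 for each of 3 proteins, were read as deposited; the 2 inputs were not used here. Per the submitters' processing notes, the build was mm10 and the tools were MACS3 3.0.0a5, Bowtie2 2.3.5 and Trim Galore. How reads were filtered, the control, the depth and the cut-offs: not given in the sources used here. Deposited values of each peak are its fold (ratio to background), a −log10 p, a −log10 q, a score that was 10 times the −log10 p in nearly all peaks and, in narrow lists, a summit. The lowest deposited −log10 p was 1 in the broad and 2 in the narrow lists, so lists hold many weak peaks and coverage depends on the cut-off. Read counts behind the peaks were not used here, so the precision of a fold is unknown.

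Genes were RefSeq GRCm38.p6; a gene was counted when a peak overlapped its window by at least 1 bp. Members and lists were chosen with earlier results of these data known, so no test was made, and counts stand beside the share of all protein-coding genes. All members were named; of 45 other autophagy genes, those with the highest geometric mean fold of any protein over both replicates, at most 2 a role. All 10 members had a peak in some list, and no low values were filtered. Interval steps, in Python 3.11.15 with pandas 2.3.3, were tested on simulated data. Alternatives were other windows, q thresholds, overlaps, list lengths and single replicates.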

Additional observations from a re-analysis of the deposited data

How the results depend on the processing

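The settings changed weak peaks more than the sites at Atg13 and Atg14. For Polr1c all settings run gave 1 member, except that single replicates gave 1 to 4, the 4 in replicate 2 (without replicate 1). For Mgea5, the 10 members with peaks in both replicates became 1 at a −log10 q of at least 2 and 0 at 5, which also ended the count at a q of at most 0.01 (0). Overlapping Mgea5 peaks were at 1 member at a −log10 q of at least 2 and at 4 with reciprocal overlap of 50%, against 9. The Panx2 counts of 9 and 7 became 2 and 1 at gene ends, 0 and 0 at a −log10 q of at least 2, 0 for the first at 5, and 1 for the second with reciprocal overlap. In start windows, an alternative set chosen after seeing the data, 1 kb on either side gave 5 members for Mgea5 and 2 for Panx2, a −log10 q of at least 2 gave 1 for Mgea5, and single replicates gave 4 to 6 for Mgea5 (6 without replicate 2) and 0 to 2 for Panx2 (2 without replicate 1). The other 58 of 75 counts stayed within 1.5 times. All of these counts are of members. For changed windows, list lengths, reciprocal overlap and a −log10 q of at least 5, the share of all genes was not computed. Whether members differ from other genes at those settings is therefore unknown. Stricter thresholds keep fewer peaks by construction; for the other changes the cause was not tested. Of the highest folds at members, 14 moved by at least the SD of the 2 replicate values at gene ends only and 20 did not. With a flank of 5 kb, 2 moved and 42 did not, and with no flank 1 and 43. Folds with no peak left at gene ends are not counted, as most of Panx2 replicate 1 and those of Polr1c replicate 2 outside Atg13. The Panx2 fold of Atg14 in replicate 2 (1.99, and 1.58 at gene ends) counts as moved, though replicate 1 had no peak to give an SD. Leaving out chromosomes 14, X and Y gave a share of genes with Mgea5 peaks of 85.8%, against 82% over all. No paired analysis was possible because the results come from no test. Read depth is unknown, so a missing peak does not show that a protein was absent.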
